A study of Mus musculus with 12 samples.

Results

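The genes described here are 33 mouse splicing factor genes: 10 SR protein genes (Srsf1 to Srsf7, Srsf9, Srsf10 and Srsf11), the 2 TRA2 genes Tra2a and Tra2b, 20 genes of the heterogeneous nuclear ribonucleoproteins (hnRNPs), and Sf1. They were picked by symbol from a table of 37310 genes, and all 33 were found. All 33 were also among the 16630 genes with enough counts to be tested. RNA was sequenced from 2 cell lines derived from mouse embryonic fibroblasts (MEF), 1 labelled as a knockout of HP1γ and 1 into which HP1γ had been put back (HPg). HP1γ, encoded by Cbx3, is a chromatin protein that binds methylated histone H3. Each line was left untreated or received 100 nM of the phorbol ester PMA (phorbol 12-myristate 13-acetate), carried in DMSO, for 30 min when nearly confluent.

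The 4 groups are KO-labelled cells with PMA, untreated KO-labelled cells, HPg cells with PMA and untreated HPg cells, each with 3 libraries that the design text calls biological triplicates. All were grown in DMEM with fetal calf serum and antibiotics. Whether untreated cells received DMSO was not stated. HPg cells are a knockout line given HP1γ back, not an unmodified wild type, and each genotype is 1 line, so line and genotype cannot be told apart. The p-values cover only the variation among cultures of a line.

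SR proteins carry RNA recognition motifs and a domain rich in arginine and serine, bind exonic enhancers and help the spliceosome to define exons. Their activity and location depend on phosphorylation of that domain by SRPK and CLK kinases. The TRA2 proteins are SR-like enhancer-binding factors. Many hnRNPs bind nascent transcripts and often oppose SR proteins at the same exons, and several also act in mRNA export, stability or translation. SF1 binds the branch point in the earliest spliceosome complex. Many SR and hnRNP genes hold an ultraconserved poison exon or a similar switch, through which the protein limits its own mRNA. PMA activates protein kinase C and, through it, the ERK kinase cascade. The counts measure RNA per gene, not splicing, isoforms or protein.

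Total counts per library ran from 111458145 to 159929347. Levels are given as CPM, counts divided by TMM-scaled library totals and put on a common scale. The 33 genes together took 0.460% to 0.722% of a library's counts. Their counts in single libraries ran from 3649 (Srsf9) to 79556 (Hnrnpk). A pair of libraries stood at the ends for these genes. The first HPg library with PMA held the highest level of 19 of the 33 genes, and the second untreated HPg library the lowest level of 14. The second untreated HPg library also had the fewest genes detected, 17822, against 19759 to 20656 in the others. In the first HPg library with PMA, the fifth of genes with the lowest GC content lay 0.22 (log2, median) above their own mean over all libraries and the fifth with the highest GC content lay at -0.15. The 3 small RNAs Rn7sk, Rpph1 and Rmrp took 8.59% to 19.2% of the counts. The parts of depth and RNA quality in the results were not tested.

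The RNA level of Cbx3 did not separate the lines. Cbx3 had 33.3, 26.9 and 35.2 CPM in KO-labelled cells with PMA, against 43.1, 33.8 and 38.9 CPM in HPg cells with PMA. Without PMA it had 35.5, 39.0 and 35.0 CPM in KO-labelled cells, against 37.1, 37.4 and 41.5 CPM in HPg cells. Its log2 difference was -0.28 with PMA (edgeR adjusted p = 0.269) and -0.08 without (edgeR adjusted p = 0.838). Gene-level counts do not say which part of the gene was altered, so they do not check the label, and the line is called KO-labelled throughout. Of 16 fibroblast markers, 13 exceeded 1 CPM on average. Their summed level was 14682 to 19090 CPM in KO-labelled cells with PMA, 14238 to 20525 CPM in untreated KO-labelled cells, 12343 to 18950 CPM in HPg cells with PMA and 13074 to 21255 CPM in untreated HPg cells, led by Col1a1, Fn1 and Vim, while Thy1, Lum and Fap were below 1 CPM. Summed epithelial (3 of 8 above 1 CPM), endothelial (3 of 7) and blood (2 of 8) markers stayed between 2.44 and 20.2 CPM, with Epcam, Cdh5 and Ptprc near 0. The epithelial sum was 14.7 to 17.8 CPM in KO-labelled libraries, against 8.26 to 11.2 CPM in HPg ones. The endothelial sum was 13.0 to 20.2 CPM in KO-labelled libraries, against 6.16 to 11.8 CPM in HPg ones. The blood sums of the lines overlapped. Neural (1 of 8), muscle (1 of 6) and adipocyte (2 of 6) sums reached 340.4, 79.2 and 59.0 CPM, carried mainly by Map2, Acta1 and Pparg, while Rbfox3, Myod1 and Adipoq were near 0. In bulk RNA, fewer cells of a type and less RNA per cell cannot be told apart.

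The promoters of Sf1, Tra2b and Hnrnpd are shown because these were the genes called higher with PMA in both lines. The windows run from 250 bases before to 50 bases after the RefSeq transcript start (build GRCm38.p6), 5′ to 3′ on the gene's strand. Capitals mark matches, on either strand, to motifs that the factors downstream of PMA are known to bind. The Sf1 window is chr19:6363440-6363739 on the plus strand, that of Tra2b is chr16:22265956-22266255 on the minus strand, and that of Hnrnpd is chr5:99978889-99979188 on the minus strand.
Sf1: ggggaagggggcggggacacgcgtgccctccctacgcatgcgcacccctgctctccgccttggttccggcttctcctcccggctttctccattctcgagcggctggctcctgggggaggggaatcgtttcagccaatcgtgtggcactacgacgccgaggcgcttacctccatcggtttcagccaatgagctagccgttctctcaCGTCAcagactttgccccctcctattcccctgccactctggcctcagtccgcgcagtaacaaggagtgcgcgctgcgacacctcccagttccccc
Tra2b: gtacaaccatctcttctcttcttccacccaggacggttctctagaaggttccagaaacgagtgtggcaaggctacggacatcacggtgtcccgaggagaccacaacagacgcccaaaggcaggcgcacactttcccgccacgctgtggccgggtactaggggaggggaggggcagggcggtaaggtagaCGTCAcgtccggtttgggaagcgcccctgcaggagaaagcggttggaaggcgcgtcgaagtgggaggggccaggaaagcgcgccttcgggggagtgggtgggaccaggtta
Hnrnpd: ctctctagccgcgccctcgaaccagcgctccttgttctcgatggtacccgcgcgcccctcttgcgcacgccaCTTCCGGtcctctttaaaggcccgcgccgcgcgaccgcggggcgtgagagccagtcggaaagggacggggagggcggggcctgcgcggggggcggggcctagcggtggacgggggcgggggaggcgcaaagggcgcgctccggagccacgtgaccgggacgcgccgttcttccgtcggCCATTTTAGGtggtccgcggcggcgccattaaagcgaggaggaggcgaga

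In Sf1 and Tra2b the capitals are the 5-letter core of the cAMP response element (CRE), TGACG, read on the opposite strand. It starts 45 bases before the transcript start in Sf1 and 61 bases before it in Tra2b. In Hnrnpd they are an ETS motif, CCGGAAG, read on the opposite strand from base -178, and a CArG box, the site of serum response factor, from base 1 of the transcript. RefSeq windows were found for 31 of the 33 genes (43 windows, since some genes have several starts), not for Hnrnpll and Hnrnpul2. TGACG stood in 26 of the 43 windows (60.5%, 21 genes), against 20.8% of all 32851 windows. The longer TGACGTCA, which contains TGACG on both strands, stood in 1 window (2.33%, Tra2a), against 1.79% of all. CCGGAAG stood in 10 windows (23.3%, 6 genes), against 8.86%. The EGR motif GCGNGGGCG stood in 8 (18.6%, 5 genes), against 5.55%, the AP-1 motif TGANTCA in 1 (2.33%, Hnrnpa1), against 7.81%, and the CArG box in 1 (2.33%, Hnrnpd), against 1.63%. The windows of the splicing factor genes had a median GC content of 66.3%, against 52.7% over all windows. The CG-holding motifs were thus searched in letters richer in C and G, and whether their shares differ beyond that was not tested. A match describes the letters only.

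Per kb of exon, Hnrnpa1 was the most abundant of the 33 genes, at 132 CPM per kb on average over the 12 libraries. Hnrnpa1 encodes the archetypal splicing silencer of the family. Hnrnpab followed at 100.3, Hnrnpk at 69.9, Hnrnpf at 67.3 and Hnrnpa0 at 53.4 CPM per kb. Srsf1, the founding SR protein, led its family at 50.3 CPM per kb, ahead of Srsf2 at 44.1 and Srsf7 at 39.9. Srsf11 was the lowest SR gene at 9.46 CPM per kb. At the low end stood Hnrnpd at 9.33, Hnrnpll at 7.69 and Hnrnpr at 4.37 CPM per kb. The genes called higher with PMA in both lines stood in the lower part of this order, with Sf1 at rank 21 (17.9 CPM per kb), Tra2b at rank 22 (16.2 CPM per kb) and Hnrnpd at rank 31 of 33. Exon length counts every annotated exon of a gene, so a gene with long, rarely used exons reads low on this scale.

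**Figure D1:**
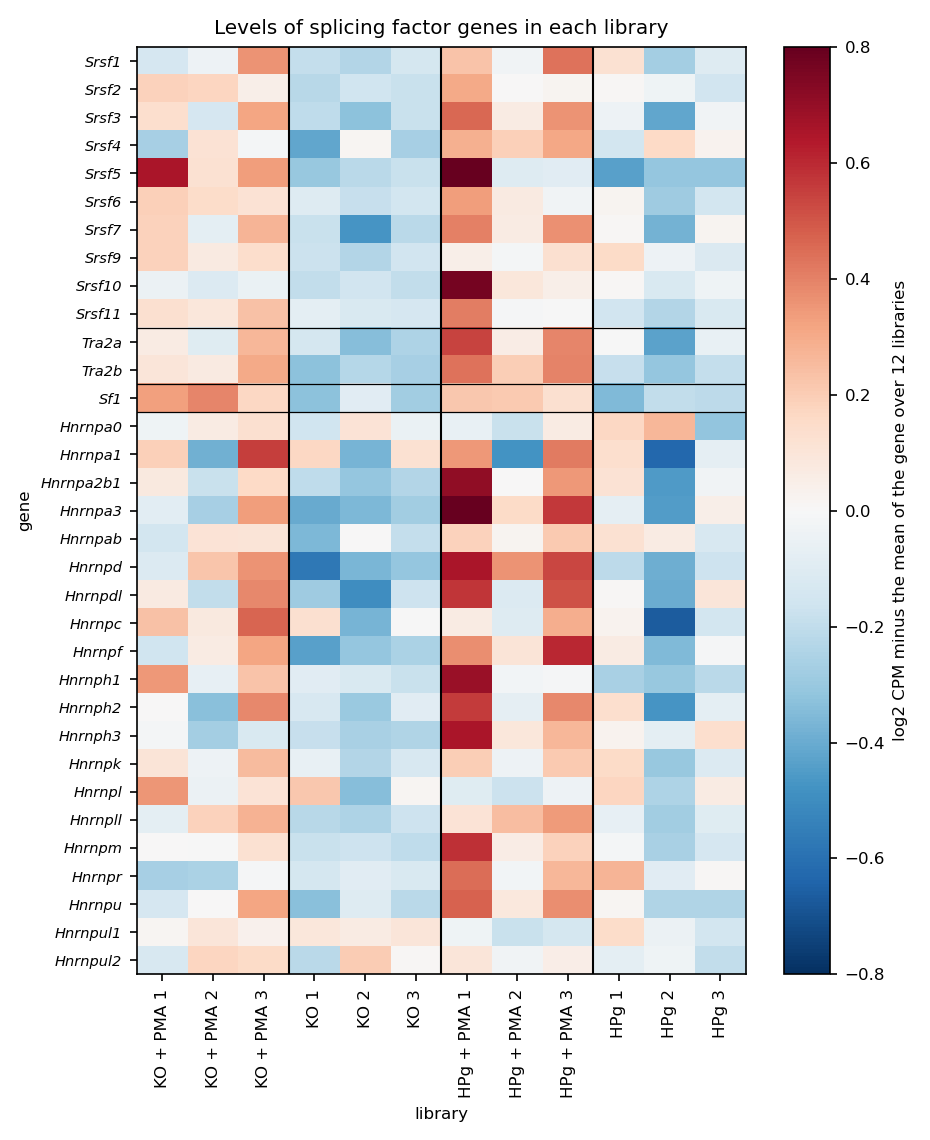
Level of each of the 33 genes (rows, by family) in each of the 12 libraries (columns, by group), as log2 CPM minus the gene's mean over the 12 libraries. The first HPg library with PMA is the highest for 19 genes and the second untreated HPg library the lowest for 14, with colours clipped at the ends of the scale.

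The first question was whether 30 min of PMA changed the RNA of these genes, asked in each line separately. In KO-labelled cells, 31 of the 33 genes had a higher fitted level with PMA, with a median log2 fold change of 0.29, against 47.7% of all tested genes above 0 and a median of -0.02. In HPg cells 30 of 33 were higher, with a median of 0.38, against 47.2% of all genes and a median of -0.02. The changes were small, at most 0.62 in KO-labelled cells and 0.77 in HPg cells on the log2 scale. The median standard error of a member's log2 fold change was 0.153. By the edgeR quasi-likelihood test with Benjamini-Hochberg adjustment over all tested genes, 3 of 33 were called higher in KO-labelled cells, against a background of 2.81%, and 3 of 33 in HPg cells, against 2.53%. None was called lower by this test. Sf1, Tra2b and Hnrnpd were the 3 genes in both lines, and 1.80% of all genes were called higher in both.

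Libraries with the same replicate number had positively correlated deviations over all genes (lowest r = 0.102, against at most 0.150 for different numbers). A second fit therefore had the number as a block, a pairing taken from the labels' numbers and these same data. With the block, 12 of the 33 genes were called higher with PMA in KO-labelled cells, against 6.79% of all genes, and 15 in HPg cells, against 8.62%. The 9 genes called in both lines, against 4.71% of all genes, were 75% of the 12 and 60% of the 15. No test of the difference between lines called any of the others, so membership of 1 list alone does not show a different response. The 3 libraries with PMA lay above all 3 untreated ones for 20 genes in KO-labelled cells, against 10.6% of all genes, and for 17 in HPg cells, against 12.3%. For 14 genes this held in both lines, against 5.54%. Within pairs of the same number, 26 genes were higher with PMA in all 3 pairs of KO-labelled cells (25.7% of all genes) and 28 in all 3 pairs of HPg cells (22.3%). In all 6 pairs 23 of the 33 genes were higher, against 13.0% of all genes.

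These counts depended on single libraries. In KO-labelled cells, leaving out 1 library left 0 to 2 of the 3 calls: 0 without the second library with PMA or without the first or the third untreated one, 1 without the third with PMA or the second untreated one, and 2 without the first with PMA. In HPg cells it left 1 call without the first or the third library with PMA or the second or the third untreated one, and 2 otherwise. With the block the count was 3 to 13 in KO-labelled cells: 4 without the second or the third library with PMA or the first untreated one, and 3 without the third untreated one. In HPg cells it was 7 to 20, with 11 without the first library with PMA, 8 without the second untreated one and 7 without the third untreated one. Only Sf1, Srsf7 and Hnrnpd kept the blocked call in all 6 such fits of KO-labelled cells. In HPg cells 7 genes did, namely Sf1, Tra2a, Tra2b, Srsf3, Srsf7, Hnrnpa3 and Hnrnpd. The other 9 genes of the KO-labelled cells all lost it without the third untreated library, and 8 of them also without the second or the third with PMA or the first untreated one. The other 8 of the HPg cells all lost it without the third untreated library, and 7 of them without the second. The calls over all genes, in either direction, changed as well when 1 library was left out. In KO-labelled cells they went from 739 to between 295 and 604, and with the block from 2221 to between 969 and 2041. In HPg cells they went from 574 to between 244 and 332, and with the block from 2462 to between 1064 and 2660.

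**Figure D2:**
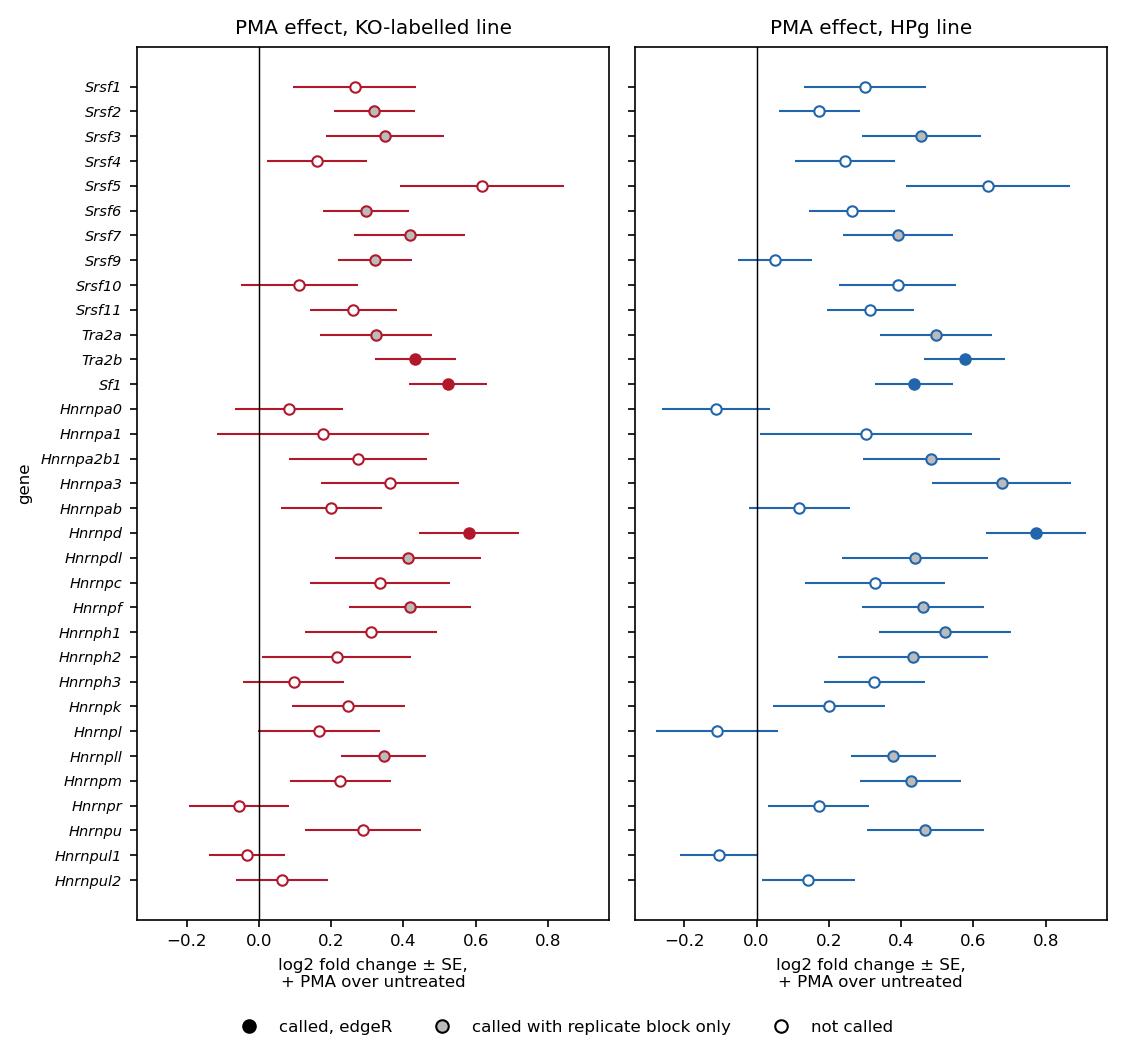
Log2 fold change (PMA over untreated) of the 33 genes in KO-labelled cells (left) and HPg cells (right), with bars of 1 SE from the edgeR fit of all 12 libraries. Filled points (Tra2b, Sf1 and Hnrnpd) were called by edgeR, grey points only with the replicate block, and open points by neither; 31 points on the left and 30 on the right lie above 0.

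Sf1, the branch point binding protein, had the smallest adjusted p among the 33 genes in KO-labelled cells, at 137, 144 and 123 CPM with PMA, against 87.5, 103 and 90.6 CPM untreated. Its log2 fold change was 0.52 ± 0.11 (SE, edgeR adjusted p = 0.0164). HPg cells had 128, 127 and 120.0 CPM with PMA, against 85.9, 95.8 and 94.9 CPM untreated, a log2 fold change of 0.44 ± 0.11 (edgeR adjusted p = 0.0474). In both lines each library with PMA lay above each untreated one, and the second untreated KO-labelled library was the highest of the untreated. The call in KO-labelled cells was lost without the second library with PMA (edgeR adjusted p = 0.0864), the first untreated one (0.0602) or the third untreated one (0.0963). In HPg cells it was lost whichever single library was left out (edgeR adjusted p = 0.0967 to 0.144). With the replicate block the adjusted p was 0.00122 in KO-labelled cells and 0.00488 in HPg cells, and the blocked call held in both lines whichever single library was left out.

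Tra2b encodes TRA2β, which binds GAA-rich exonic enhancers. It had 157, 154 and 181 CPM with PMA, against 117, 126 and 122 CPM untreated, in KO-labelled cells. The log2 fold change was 0.43 ± 0.11 (SE, edgeR adjusted p = 0.0493). The HPg libraries held 199, 169 and 193 CPM with PMA, against 129, 118 and 129 CPM untreated, a log2 fold change of 0.58 ± 0.11 (edgeR adjusted p = 0.0164). The groups did not overlap in either line. The call was lost in KO-labelled cells whichever single library was left out (edgeR adjusted p = 0.0617 to 0.186), and in HPg cells without the first (0.0595) or the third (0.067) library with PMA or the second (0.0612) or the third (0.0606) untreated one. The blocked adjusted p was 0.00694 in KO-labelled cells, though 0.0688 without the third untreated library, and 0.00106 in HPg cells. With levels corrected for GC content and length, its log2 fold change was 0.54 (edgeR adjusted p = 0.0414) in KO-labelled cells and 0.36 (edgeR adjusted p = 0.213) in HPg cells. Its transcripts have the lowest GC content of the 33 genes, 41.0%.

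Tra2a is the paralog of Tra2b and binds similar sequences. Tra2a had 90.2, 80.8 and 104 CPM in KO-labelled cells with PMA, against 78.5, 68.1 and 72.9 CPM in untreated KO-labelled cells. HPg cells showed 126, 90.0 and 113 CPM with PMA, against 86.1, 64.1 and 82.9 CPM untreated. The groups did not overlap in either line, and the second library was the lowest in each group. The log2 fold change was 0.32 in KO-labelled cells (blocked adjusted p = 0.0365) and 0.50 in HPg cells (blocked adjusted p = 0.00347). Without the block neither was called (edgeR adjusted p = 0.333 in KO-labelled cells and 0.107 in HPg cells).

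All 10 SR protein genes were fitted higher with PMA in both lines, with a median log2 fold change of 0.31 in each, and edgeR called none of them. With the replicate block, 5 were called in KO-labelled cells (Srsf2, Srsf3, Srsf6, Srsf7 and Srsf9) and 2 in HPg cells (Srsf3 and Srsf7). Srsf7, a shuttling SR protein with a zinc knuckle, had 158, 132 and 168 CPM with PMA, against 123, 101 and 119.7 CPM untreated, in KO-labelled cells. HPg cells had 184, 146 and 179 CPM with PMA, against 140.0, 107 and 141 CPM untreated. The second untreated library of each line was its lowest, and no library with PMA fell below an untreated one of its line. Its log2 fold change was 0.42 in KO-labelled cells (blocked adjusted p = 0.00376) and 0.39 in HPg cells (blocked adjusted p = 0.00557).

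Srsf3, the smallest SR protein, acts in splicing, polyadenylation and mRNA export. Srsf3 had 303, 251 and 343 CPM in KO-labelled cells with PMA, against 240.0, 220.2 and 244 CPM in untreated KO-labelled cells. The levels in HPg cells were 379, 288 and 355 CPM with PMA, against 268, 206 and 271 CPM untreated. Each library with PMA was above each untreated one of its line, by little for the second KO-labelled library with PMA. The log2 fold change was 0.35 in KO-labelled cells (blocked adjusted p = 0.0322) and 0.46 in HPg cells (blocked adjusted p = 0.00668). Srsf2, known as SC35 and a classical marker of nuclear speckles, had 147, 146 and 134 CPM with PMA, against 111, 116 and 115 CPM untreated, in KO-labelled cells, a log2 fold change of 0.32 (blocked adjusted p = 0.0335). HPg cells had 160.5, 130.2 and 132 CPM with PMA, against 131, 127 and 117 CPM untreated, and Srsf2 was not called there (log2 fold change 0.17, blocked adjusted p = 0.227). There the second library with PMA lay below the first untreated one, and the first with PMA was the highest.

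Srsf6, known as SRp55, regulates exon inclusion and has been linked to wound healing in skin. Srsf6 had 132, 128 and 125 CPM in KO-labelled cells with PMA, against 107, 101 and 104 CPM in untreated KO-labelled cells. Its level in HPg cells was 145, 121 and 113 CPM with PMA, against 117, 94.6 and 104 CPM untreated. The KO-labelled groups did not overlap, while in HPg cells the third library with PMA lay below the first untreated one. Its blocked adjusted p was 0.0422 in KO-labelled cells (log2 fold change 0.30) and 0.0647 in HPg cells (log2 fold change 0.26). Srsf4, known as SRp75, was called in neither line, at 67.8, 88.0 and 80.3 CPM with PMA, against 61.0, 82.4 and 67.7 CPM untreated, in KO-labelled cells. HPg cells had 99.1, 93.1 and 101 CPM with PMA, against 73.6, 90.7 and 83.1 CPM untreated. Its log2 fold change was 0.16 in KO-labelled cells (blocked adjusted p = 0.315) and 0.24 in HPg cells (blocked adjusted p = 0.102).

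Srsf9, a short SR protein related to Srsf1, had 41.9, 38.8 and 40.6 CPM with PMA, against 32.7, 31.3 and 33.1 CPM untreated, in KO-labelled cells, without overlap. HPg cells had 38.1, 36.5 and 40.4 CPM with PMA, against 41.0, 35.9 and 34.1 CPM untreated, and there the groups overlapped. Its log2 fold change was 0.32 in KO-labelled cells (blocked adjusted p = 0.026, lost whichever single library was left out) and 0.05 in HPg cells (blocked adjusted p = 0.734). The difference of these 2 effects, 0.27 ± 0.14, was not called (edgeR unadjusted p = 0.0837, adjusted p = 1.00). The remaining SR genes, Srsf1, Srsf5, Srsf10 and Srsf11, had log2 fold changes of 0.11 to 0.62 in KO-labelled cells and 0.30 to 0.64 in HPg cells. Srsf10 can act as a splicing repressor when dephosphorylated, and Srsf11 associates with early spliceosome factors. Srsf5, first described in rat liver as a growth-responsive gene, is singled out after its values were seen, as the largest of these. In KO-labelled cells it had 231, 159.9 and 185 CPM with PMA, against 119, 127 and 130.0 CPM untreated. The HPg libraries held 265, 137 and 138 CPM with PMA, against 109, 119 and 119 CPM untreated, so that 1 library with PMA stood far above the other 2. Its blocked adjusted p was 0.0541 in KO-labelled cells and 0.0528 in HPg cells.

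**Figure D3:**
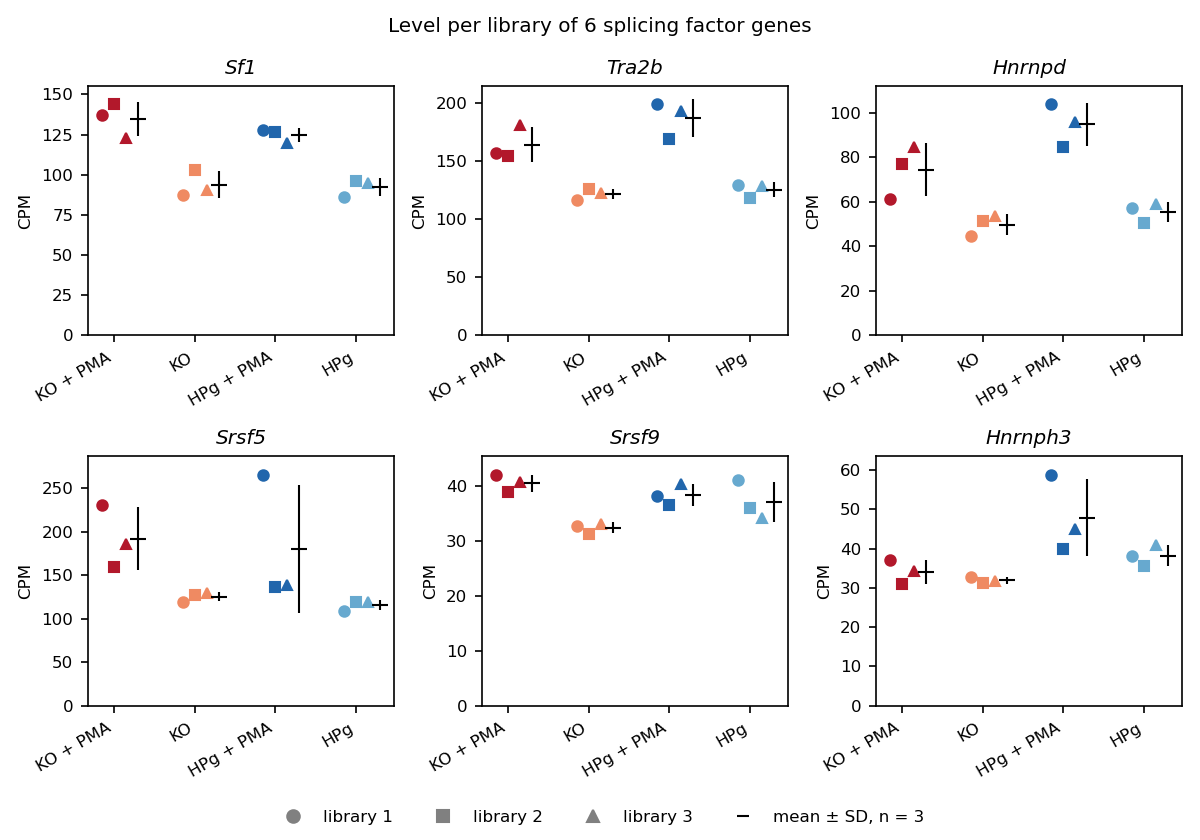
Level (CPM) in each library of Sf1, Tra2b, Hnrnpd, Srsf5, Srsf9 and Hnrnph3, by group, with the mean ± SD (n = 3). For Sf1, Tra2b and Hnrnpd all libraries with PMA lie above the untreated ones of the same line; Srsf5 and Hnrnph3 are highest in the first HPg library with PMA.

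Of the 20 hnRNP genes, 18 were fitted higher with PMA in KO-labelled cells (median log2 fold change 0.24) and 17 in HPg cells (median 0.35). EdgeR called Hnrnpd in both lines. With the block 4 were called in KO-labelled cells and 10 in HPg cells. Hnrnpd encodes AUF1, which binds AU-rich elements in the 3′ ends of short-lived mRNAs and affects their decay. It had 61.4, 77.1 and 84.9 CPM with PMA, against 44.4, 51.4 and 53.4 CPM untreated, in KO-labelled cells. The log2 fold change was 0.58 ± 0.14 (SE, edgeR adjusted p = 0.0334). HPg cells had 104, 84.8 and 95.9 CPM with PMA, against 57.1, 50.6 and 59.0 CPM untreated, a log2 fold change of 0.77 ± 0.14 (edgeR adjusted p = 0.00978). That was the largest PMA effect among the 33 genes in HPg cells, and the groups did not overlap in either line. In KO-labelled cells the call held without the first library with PMA and was lost when any other single library was left out (edgeR adjusted p = 0.0775 to 0.141). In HPg cells it held whichever library was left out.

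Hnrnpdl, a close paralog of Hnrnpd, had 112, 93.4 and 139.7 CPM with PMA, against 88.0, 76.0 and 95.6 CPM untreated, in KO-labelled cells. HPg cells had 159, 99.4 and 153 CPM with PMA, against 108, 81.4 and 114 CPM untreated. The groups overlapped in both lines. Every pair of the same number was higher with PMA, and the blocked adjusted p was 0.0164 in KO-labelled cells (log2 fold change 0.41) and 0.0112 in HPg cells (log2 fold change 0.44). Hnrnpa2b1, a reader of RNA sorting signals and of exonic silencers, had 243, 204 and 257 CPM with PMA, against 200.5, 186 and 196 CPM untreated, in KO-labelled cells. HPg cells showed 377, 231 and 293 CPM with PMA, against 250.1, 169 and 226 CPM untreated. In HPg cells the second library with PMA lay below the first untreated one, and the blocked adjusted p was 0.0141 (log2 fold change 0.48). It was 0.151 in KO-labelled cells (blocked adjusted p; log2 fold change 0.27).

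Hnrnpa3, a close relative of Hnrnpa2b1, had 77.4, 68.2 and 104 CPM with PMA, against 62.2, 63.9 and 67.8 CPM untreated, in KO-labelled cells. The levels in HPg cells were 144, 91.4 and 121 CPM with PMA, against 78.1, 60.2 and 84.7 CPM untreated. The first HPg library with PMA was the highest of all 12, and no library with PMA fell below an untreated one of its line. The log2 fold change was 0.36 in KO-labelled cells (blocked adjusted p = 0.095) and 0.68 in HPg cells (blocked adjusted p = 0.00326). Hnrnpa3 has 28 near-identical copies elsewhere in the genome (at least 95% identity over at least 150 bases), 21 of them in the table with 5.97 to 11.9 CPM together, so its counts are uncertain by reads that the authors' counting could have split. Of the other A/B genes, the AU-rich element binder Hnrnpa0, the splicing silencer Hnrnpa1 and Hnrnpab, a nucleic acid binder of the same family, were not called in either line by either fit, with log2 fold changes of 0.08 to 0.20 in KO-labelled cells and -0.11 to 0.30 in HPg cells.

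The F/H genes encode proteins that bind G-rich sequences. Hnrnpf had 179, 209 and 249.8 CPM with PMA, against 148, 162 and 168 CPM untreated, in KO-labelled cells. Its level in HPg cells was 259, 215 and 304 CPM with PMA, against 209.8, 157 and 199 CPM untreated. The groups did not overlap in either line, and its blocked adjusted p was 0.0417 in KO-labelled cells (log2 fold change 0.42) and 0.025 in HPg cells (log2 fold change 0.46). Hnrnph1 had 258, 194 and 238 CPM with PMA, against 190.4, 187 and 179 CPM untreated, in KO-labelled cells. The HPg libraries held 328, 200.2 and 201 CPM with PMA, against 169, 164 and 175 CPM untreated, with the first library with PMA well above the rest. The groups did not overlap in either line. Its blocked adjusted p was 0.168 in KO-labelled cells (log2 fold change 0.31) and 0.0266 in HPg cells (log2 fold change 0.52).

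The X-linked Hnrnph2 had 58.9, 46.5 and 76.5 CPM with PMA, against 53.8, 47.8 and 55.1 CPM untreated, in KO-labelled cells, and the groups overlapped. HPg cells showed 86.5, 55.9 and 76.7 CPM with PMA, against 64.3, 42.3 and 55.5 CPM untreated, and there they overlapped too, since the second library with PMA lay below the first untreated one. The blocked adjusted p was 0.317 in KO-labelled cells (log2 fold change 0.22) and 0.025 in HPg cells (log2 fold change 0.43). Hnrnph3, the smallest of the group, had 37.0, 30.9 and 34.3 CPM with PMA, against 32.8, 31.2 and 31.7 CPM untreated, in KO-labelled cells, and 58.8, 39.9 and 45.0 CPM with PMA, against 38.1, 35.5 and 41.0 CPM untreated, in HPg cells. It was called in neither line (blocked adjusted p = 0.626 in KO-labelled cells and 0.0564 in HPg cells), and its groups overlapped in both.

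Hnrnpll, which drives exon skipping in CD45 in lymphocytes, had 84.1, 101 and 108 CPM with PMA, against 76.3, 75.0 and 79.2 CPM untreated, in KO-labelled cells. The levels in HPg cells were 95.7, 105 and 112 CPM with PMA, against 84.8, 73.2 and 83.0 CPM untreated. The groups did not overlap in either line. Its blocked adjusted p was 0.0299 in KO-labelled cells (log2 fold change 0.35) and 0.0183 in HPg cells (log2 fold change 0.38). Hnrnpl itself, a binder of CA repeats, was called in neither line by either fit, at 0.17 in KO-labelled cells and -0.11 in HPg cells on the log2 scale. The same held for Hnrnpk, a binder of C-rich sequence (0.25 in KO-labelled cells and 0.20 in HPg cells), and for Hnrnpc, which coats nascent uridine tracts (0.34 in KO-labelled cells and 0.33 in HPg cells).

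Hnrnpm, known in human cells as a regulator of splicing in the epithelial-mesenchymal transition, had 170.3, 169.7 and 185 CPM with PMA, against 150.3, 151 and 147 CPM untreated, in KO-labelled cells. Its level in HPg cells was 255, 177 and 193 CPM with PMA, against 168, 142 and 155 CPM untreated. The groups did not overlap in either line, and the first HPg library with PMA was the highest. Hnrnpu, also called SAF-A, binds RNA and nuclear scaffold DNA. Hnrnpu had 298, 328 and 408 CPM in KO-labelled cells with PMA, against 259, 306 and 283 CPM in untreated KO-labelled cells. The HPg libraries held 454, 347 and 424 CPM with PMA, against 332, 278 and 277 CPM untreated. Only the HPg groups were free of overlap. In HPg cells the blocked adjusted p was 0.0207 for Hnrnpm (log2 fold change 0.43) and 0.0356 for Hnrnpu (log2 fold change 0.47). In KO-labelled cells it was 0.199 for Hnrnpm (log2 fold change 0.23) and 0.197 for Hnrnpu (log2 fold change 0.29).

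Hnrnpr, which acts in mRNA transport in neurons, had 79.9, 80.5 and 95.3 CPM with PMA, against 87.3, 90.1 and 88.1 CPM untreated, in KO-labelled cells. HPg cells showed 131, 94.4 and 116 CPM with PMA, against 116, 90.3 and 96.8 CPM untreated. It was the only gene other than Hnrnpul1 with a fitted value below 0 in KO-labelled cells (-0.05 for Hnrnpr and -0.03 for Hnrnpul1, log2), and neither was called by either fit. The Hnrnpu paralogs Hnrnpul1 and Hnrnpul2 had log2 fold changes of -0.10 and 0.14 in HPg cells, and Hnrnpul2 had 0.06 in KO-labelled cells. The 3 genes below 0 in HPg cells were Hnrnpa0, Hnrnpl and Hnrnpul1, at -0.11, -0.11 and -0.10.

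Whether the PMA effect differed between the lines was asked with the interaction of line and PMA. None of the 33 genes was called (0% of all genes), and none had an unadjusted p under 0.05 by edgeR or DESeq2, although 328 genes (1.97%) of all tested did by edgeR. DESeq2 called 1 of all tested genes. With the replicate block 1 of the 33 had an unadjusted p under 0.05, against 7.67% of all genes, and none was called. The median interaction was -0.05 on the log2 scale, with 11 of 33 above 0, against a median of 0.02 and 52.2% over all genes. With levels corrected for GC content and length it was 0.10, with 25 of 33 above 0. Over all genes the corrected median was 0.04, with 57.5% above 0. The direction for the 33 genes thus depends on that correction. Leaving out 1 library gave -0.17 (without the third KO-labelled library with PMA) to 0.01 (without the second untreated HPg one), with -0.16 without the second HPg library with PMA, -0.13 without the first untreated HPg one and -0.01 without the first library with PMA of either line. Without the second KO-labelled library with PMA it was -0.02, and without the third untreated HPg one -0.08. The median SE of an interaction was 0.216, so differences of that size between the lines were not detectable here.

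Between the untreated lines, 25 of the 33 genes were fitted lower in KO-labelled cells, with a median log2 difference of -0.08, against 0.01 (median) over all genes. Leaving out the first untreated HPg library made this median -0.02 and leaving out the second -0.16. None was called by edgeR, against 1.32% of all genes, and none had an unadjusted p under 0.05, against 14.3%. With the block none was called either, against 12.5% of all genes, and 4 had an unadjusted p under 0.05, against 26.8%. The 3 KO-labelled libraries lay above all HPg ones for Srsf5 and Hnrnph1 (9.57% of all genes) and below them for Srsf2, Srsf9, Srsf10, Hnrnph3 and Hnrnpr (8.95%). Those 7 differences ran from -0.26 (Hnrnph3) to 0.13 (Hnrnph1). With the block and levels corrected for GC content and length, Hnrnph3 was called lower (adjusted p = 0.0328), against 8.54% of all genes called lower.

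With PMA, 21 of the 33 genes were fitted lower in KO-labelled cells than in HPg cells, with a median log2 difference of -0.15. Over all genes the median was 0.01, with 51.3% above 0. For the 33 genes the median varied by library. Leaving out 1 library gave medians of -0.09 (without the second KO-labelled library with PMA) to -0.26 (without the second HPg one), with -0.23 without the third KO-labelled one and -0.10 without the first HPg one. EdgeR called none (2.47% of all genes), with 6 at an unadjusted p under 0.05 (18.4% of all genes). DESeq2 called 1 lower, Hnrnph3 (adjusted p = 0.0264), against 3.57%. With the block 5 were called lower, against 9.09% of all genes, namely Srsf4, Hnrnpa3, Hnrnpd, Hnrnph3 and Hnrnpr. Of these only Hnrnph3 kept the call whichever of the 6 libraries with PMA was left out. The count called lower was 1 without the first, 2 without the second and 4 without the third KO-labelled library with PMA. It was 2, 8 and 3 without HPg library 1, 2 or 3 with PMA. Over all genes, the block called 3090 in either direction with all libraries. That number was 1361, 2162 and 1982 without KO-labelled library 1, 2 or 3 with PMA. It was 1979, 3768 and 1676 without HPg library 1, 2 or 3 with PMA. The count of 8 thus came from the fit that also called the most genes over all. No member was called higher with the block over all libraries (9.49% of all genes were), but without the first HPg library Srsf5 was (0.45, blocked adjusted p = 0.0369). Groups did not overlap for Srsf4, Srsf10 and Hnrnph3, lower in KO-labelled cells (12.4% of all genes), and for Hnrnpul1, higher (12.5%).

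Hnrnph3 had 37.0, 30.9 and 34.3 CPM in KO-labelled cells with PMA, against 58.8, 39.9 and 45.0 CPM in HPg cells with PMA. Its log2 difference was -0.49 ± 0.14 (SE, edgeR adjusted p = 0.0848, with the block 0.00623). Untreated, it had 32.8, 31.2 and 31.7 CPM in KO-labelled cells, against 38.1, 35.5 and 41.0 CPM in HPg cells, a log2 difference of -0.26. KO-labelled libraries were lower in both comparisons without overlap. Hnrnph3 lies on chromosome 10. With chromosome medians removed, its log2 difference was -0.25 with PMA (edgeR adjusted p = 0.394) and -0.02 untreated (edgeR adjusted p = 0.985). How much of its difference is shared with its chromosome was not tested further. The next were Hnrnpa3 at -0.52 (blocked adjusted p = 0.0124), Hnrnpr at -0.42 (blocked adjusted p = 0.0222), Hnrnpd at -0.35 (blocked adjusted p = 0.0451) and Srsf4 at -0.31 (blocked adjusted p = 0.0365). For Srsf4, each KO-labelled library with PMA was below each HPg one, while for Hnrnpa3, Hnrnpr and Hnrnpd 1 or more libraries crossed.

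Because the transcripts of these genes are poor in GC, the comparisons were repeated with GC content and exon length taken out of each library. The 33 genes had a median transcript GC content of 44.6%, from 41.0% (Tra2b) to 55.4% (Hnrnpa0), against 50.2% over all tested genes, and 26 of 33 lay below that median. Over all genes, the HPg response to PMA ran with GC content. The median log2 fold change of the 5 GC classes, low to high, was 0.18, 0.06, -0.04, -0.10 and -0.19. In KO-labelled cells the same medians were -0.03, -0.04, -0.02, 0.01 and 0.00. The medians of the splicing factor genes lay above those of their class in both lines. The 17 in the class poorest in GC had a median of 0.31 in KO-labelled cells and 0.43 in HPg cells, the 7 in the next 0.30 in KO-labelled and 0.43 in HPg cells, the 6 in the third 0.18 in KO-labelled and 0.08 in HPg cells, and the 3 in the fourth 0.16 in KO-labelled and 0.24 in HPg cells. None lay in the class richest in GC. Across the 33 genes the log2 fold change in HPg cells had a Pearson correlation with GC content of -0.63, and of -0.21 after the correction. In KO-labelled cells it was -0.21 before and -0.42 after. The genes share the same 12 libraries, so these are descriptions.

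**Figure D4:**
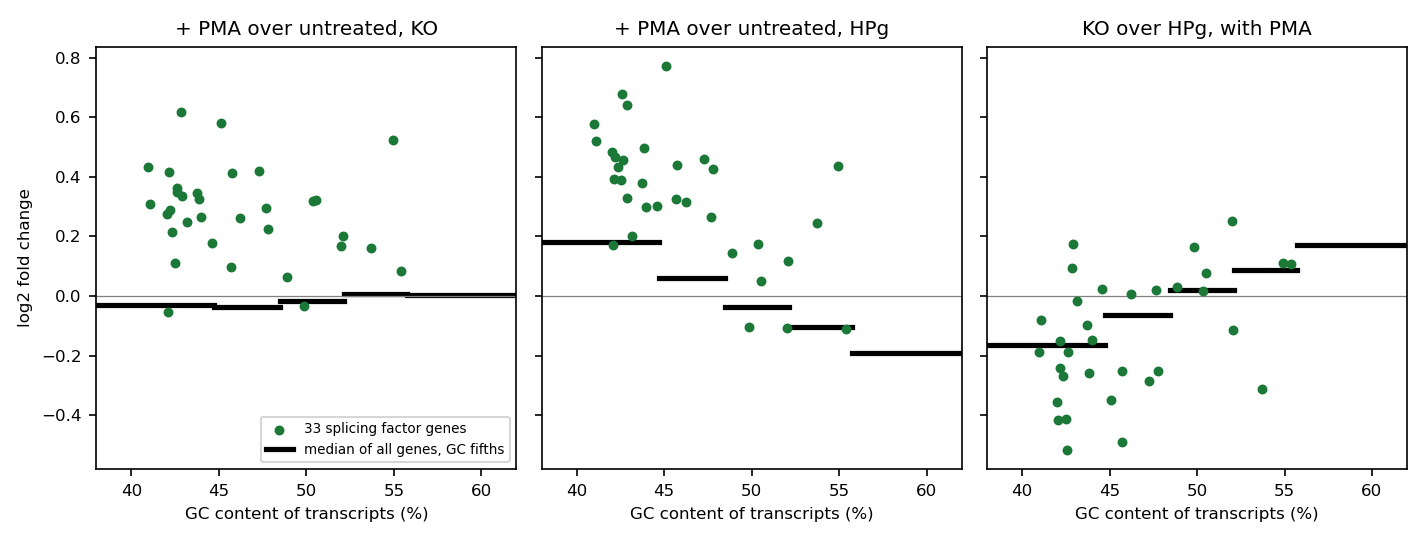
Log2 fold change against transcript GC content (%) for PMA in KO-labelled cells, PMA in HPg cells, and KO-labelled over HPg cells with PMA, for the 33 genes (points) and the medians of all tested genes in 5 GC classes (bars; the outer bars run on past the plotted 38% to 62%). The bars are flat at -0.04 to 0.01 on the left and slope from 0.18 to -0.19 in the middle; the points lie mostly above them in both.

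After the correction, all 33 genes were fitted higher with PMA in KO-labelled cells, with a median log2 fold change of 0.33, and 29 of 33 in HPg cells, with a median of 0.23. Of all genes, 48.8% were then above 0 in KO-labelled cells and 43.8% in HPg cells. The medians of the 5 GC classes, low to high, were then 0.03, 0.02, 0.002, -0.02 and -0.05 in KO-labelled cells. In HPg cells they were -0.02, -0.01, -0.03, -0.05 and -0.08. The corrected KO-labelled medians thus fell with GC content, unlike the uncorrected ones. The part of this trend in the corrected values of the 33 genes was not tested. EdgeR then called Sf1, Tra2b and Hnrnpd in KO-labelled cells (3.64% of all genes higher) and Sf1 and Hnrnpd in HPg cells (2.39%). With the correction and the block together, 19 of the 33 were called higher in KO-labelled cells, against 9.33% of all genes, and 9 in HPg cells, against 7.17%. Without the first HPg library with PMA that 9 was 8. Sf1 had corrected log2 fold changes of 0.51 in KO-labelled cells and 0.53 in HPg cells, and Hnrnpd of 0.65 in KO-labelled cells and 0.66 in HPg cells. Between the lines with PMA, the median difference was 0.015 after the correction, against -0.15 before. Hnrnpr moved most among the 5 genes named there, to -0.13. Hnrnpd had -0.20 and was no longer called with the block (adjusted p = 0.169). Srsf4 (-0.43, adjusted p = 0.0127), Hnrnpa3 (-0.32, 0.0234) and Hnrnph3 (-0.38, 0.00727, all with block and correction) still were, 3 of 33 against 8.91% of all genes called lower. With the first HPg library with PMA also left out, only Hnrnph3 was called lower (-0.29, adjusted p = 0.0371) and Srsf5 was called higher (0.55, adjusted p = 0.0109).

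Across 6 other lists of splicing genes, scored the same way, the median log2 fold change with PMA ran from -0.24 to 0.22 in KO-labelled cells and from 0.04 to 0.31 in HPg cells. Whether these medians differ from those of the 33 genes was not tested. Of 54 core spliceosome genes, 50 were fitted higher with PMA in KO-labelled cells (median log2 fold change 0.17, none called) and 37 in HPg cells (median 0.12). EdgeR called 1 of them there, U2surp, a component of the U2 particle (0.46, adjusted p = 0.0438). Of 20 SR-like and SR-related genes, 17 were higher in KO-labelled cells (median 0.12, none called) and 19 in HPg cells (median 0.31), where Bclaf1, an RS-domain protein, was called (0.63, edgeR adjusted p = 0.0342). Of 21 other hnRNP-like genes, 15 were higher in KO-labelled cells (median 0.22, none called) and 12 in HPg cells (median 0.19). There Ptbp3, a paralog of the polypyrimidine tract binding protein (0.53, edgeR adjusted p = 0.0337), and Taf15, an RNA-binding protein that associates with TFIID (0.65, edgeR adjusted p = 0.0431), were called. With the block, 4 of 54 core, 0 of 20 SR-like and 1 of 21 hnRNP-like genes were called higher in KO-labelled cells, against 6.79% of all genes. In HPg cells 9 core, 5 SR-like and 8 hnRNP-like genes were, against 8.62%. Of the core spliceosome, SR-like and hnRNP-like genes, none was called lower with PMA by either fit in either line.

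The kinases and phosphatases that act on SR proteins held 11 of 14 genes fitted higher with PMA in KO-labelled cells (median 0.18) and 10 in HPg cells (median 0.19). EdgeR called Clk3 in KO-labelled cells (0.61, adjusted p = 0.0155) and Clk4 in HPg cells (0.58, adjusted p = 0.0344), both of the CLK family that phosphorylates SR proteins, and the block called 1 of 14 higher in KO-labelled cells (6.79% of all genes) and 6 in HPg cells (8.62%). Tissue-regulated splicing factors were split, with 5 of 15 tested genes above 0 in KO-labelled cells (median -0.24) and 10 in HPg cells (median 0.14). None was called by edgeR. The block called 2 higher and 1 lower in KO-labelled cells, and 1 higher and 1 lower in HPg cells. Of all genes, 6.56% were called lower with PMA in KO-labelled cells and 6.19% in HPg cells. Nonsense-mediated decay factors, which degrade the poison-exon isoforms of SR genes, had 4 of 10 above 0 in KO-labelled cells (median -0.02) and 6 in HPg cells (median 0.04), with none called by edgeR. The block called Smg6 lower in KO-labelled cells (-0.33, blocked adjusted p = 0.037).

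Between the lines with PMA, edgeR called Pcbp3, a binder of C-rich RNA (-0.72, adjusted p = 0.0288), and Snrpd3, a ring subunit of the spliceosomal particles (-0.53, adjusted p = 0.0468), both lower in KO-labelled cells. With the block, 9 of 54 core spliceosome, 5 of 20 SR-like, 2 of 21 hnRNP-like, 2 of 15 tissue-regulated and 2 of 10 decay genes were called lower in KO-labelled cells with PMA, against 9.09% of all genes. In the other direction 1 SR-like and 1 tissue-regulated gene were called, against 9.49%, and none of the 14 kinases and phosphatases was called in either. EdgeR called no gene of the 6 lists between the untreated lines. With the block, 7 core spliceosome genes were called lower in untreated KO-labelled cells, against 5.44% of all genes, among them Usp39 (-0.47, blocked adjusted p = 0.013). The block also called 3 decay factors lower there, Upf1, Smg5 and Upf3a (-0.46, -0.30 and -0.32, with blocked adjusted p of 0.011, 0.0487 and 0.0468), and 2 of the hnRNP-like genes, Pcbp3 and Ptbp1. Of the tissue-regulated factors, 1 was called lower, Rbm38, and 3 were called higher (7.08% of all genes), Nova1, Khdrbs2 and Mbnl2. Khdrbs2 was near 0 in both lines, at a mean of 0.159 CPM in untreated KO-labelled and 0.0186 CPM in untreated HPg cells. Mbnl2 averaged 235 CPM in untreated KO-labelled and 168 CPM in untreated HPg cells. Nova1, a neuronal splicing regulator, averaged 1.17 CPM in untreated KO-labelled cells and 0.314 CPM in untreated HPg cells (blocked adjusted p = 0.000888). No SR-like gene and no kinase or phosphatase was called between the untreated lines by either fit. Of the core spliceosome genes, 11 of 54 lay above 0 in that comparison (median -0.14).

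Some counts are uncertain in their assignment, because the sources used here do not say how reads matching several genes were treated or whether strand was used. Near-identical copies elsewhere in the genome exist for 12 of the 33 genes. Hnrnpa1 has 10, and the 6 in the table held 1.71 to 3.37 CPM, against a mean of 415 CPM for Hnrnpa1. The copy of Hnrnph1 held 9.90 to 23.9 CPM, against 207 CPM, and the counted copy of Hnrnpk had 13.5 to 22.0 CPM, against 452 CPM. Exons on the opposite strand overlap those of 10 genes, among them Hnrnpd (385 bases, Gm17092), Srsf4 (1532 bases, Gm12992), Srsf2 (748 bases), Hnrnpab (809 bases), Hnrnpu (804 bases) and Sf1 (70 bases). A neighbour on the same strand overlaps Hnrnpm by 1169 bases (March2).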

How the data were processed

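RNA-seq counts from 12 libraries in 4 groups of 3 were analysed. The authors deposited raw counts per gene, whole numbers that were not normalized, as the values show. Libraries were directional and paired-end, from total RNA without ribosomal RNA, per the labels' protocols. Genome build mm9, STAR 2.5.0a, cutadapt 1.11 and Subread with featureCounts 1.4.6-p3 are named, per the submitters' processing notes. The sources used here do not say which annotation was counted, with which strand setting, or how reads that match several genes were treated. Symbols, GC content, exon length and near copies came from GENCODE M21 on GRCm38, another build, and matched 32620 of 37310 genes.

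Genes were filtered with filterByExpr (minimum count 10, minimum total 15), which kept 16630. Differences were tested with the edgeR 4.0.16 quasi-likelihood F-test in R 4.3.3 (robust, TMM factors, all 12 libraries in 1 fit), with Benjamini-Hochberg adjustment over all tested genes. A gene with adjusted p below 0.05 is called. CPM values use TMM factors. An exact permutation of 3 against 3 could not reach p below 0.1. The scripts were tested on simulated counts.

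The labels number the replicates in every group. Over all genes, the 18 pairs of libraries with the same number in different groups had correlated deviations from their group means (r = 0.102 to 0.488). The 36 pairs with different numbers had r = -0.460 to 0.150. These ranges overlap. Deviations from a group mean cancel within the group, so negative r for different numbers follows in part from positive r for the same number. The pairing comes from the labels' numbers and these data; what a number stands for is not stated. A fit with the number as a block ("with the block", "blocked adjusted p") is therefore given wherever it changes a call. No replicates agreed within sampling noise (chi-square per degree of freedom 104 to 689), so each library counts once.

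For the GC and length correction, a trend of each library's log2 CPM deviation on transcript GC content and log10 exon length (natural splines, 5 df each) was removed through offsets. GC content was known for 15764 of the 16630 genes. The other alternatives were DESeq2 1.42.0, other scaling, no filter, a fit of only the 2 groups compared, removal of chromosome medians, and leaving out each library. All 33 members are named. Those called in any comparison, with or without the block, are given in every library, and of each other list up to 4 genes per comparison are named in order of p. The members and lists were chosen with earlier results of these data known. Some results for single genes of the comparison lists are not reported here.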

Additional observations from a re-analysis of the deposited data

Results flagged for a closer look

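Srsf9 was the only one of the 33 genes for which all libraries of a comparison moved in opposite directions in the 2 conditions. Within pairs of the same replicate number, KO-labelled cells lay above HPg cells in all 3 pairs with PMA (41.9, 38.8 and 40.6 CPM in KO-labelled cells, against 38.1, 36.5 and 40.4 CPM in HPg cells) and below them in all 3 pairs without PMA (32.7, 31.3 and 33.1 CPM in KO-labelled cells, against 41.0, 35.9 and 34.1 CPM in HPg cells). Its interaction of line and PMA was 0.27 on the log2 scale (edgeR unadjusted p = 0.0837, adjusted p = 1.00), which does not pass the threshold.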

How the results depend on the processing

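The direction of the PMA medians held under all alternatives run, and no result called with all 12 libraries changed sign. Srsf5 was called higher between the lines with PMA only without the first HPg library with PMA. With chromosome medians removed its log2 difference was -0.09. In KO-labelled cells the count of genes called with PMA was 3, against 0 with library totals only or with only the 2 groups fitted, 12 with the replicate block and 19 with block and GC correction. Leaving out 1 library gave 0 to 2, and with the block 3 to 13 (13, 4 and 4 without library 1, 2 or 3 with PMA and 4, 9 and 3 without library 1, 2 or 3 untreated). In HPg cells it was 3, against 7 by DESeq2, 1 with only the 2 groups, 15 with the block, 9 with block and GC correction and 8 with these and without the first library with PMA. Leaving out 1 library gave 1 to 2, and with the block 7 to 20 (11, 20 and 14 without library 1, 2 or 3 with PMA and 16, 8 and 7 without library 1, 2 or 3 untreated). Between the lines with PMA the count was 0, against 1 by DESeq2, 5 with the block, 3 with block and GC correction and 2 with these and without the first HPg library (Hnrnph3 lower and Srsf5 higher). Leaving out 1 library gave 0 to 1, and with the block 1, 2 and 4 (KO-labelled library 1, 2 or 3) and 3, 8 and 3 (HPg library 1, 2 or 3), all lower but Srsf5, higher without HPg library 1. Between the untreated lines it was 0, and 1 with block and GC correction. The fits with the block and a library left out, or with the block, the correction and the first HPg library with PMA left out, were chosen after seeing the data.

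The median log2 fold change with PMA in KO-labelled cells was 0.29, against 0.24 with upper-quartile factors, 0.16 with library totals only (where the median of all genes was -0.14), 0.33 with the GC correction and 0.34 with block and GC correction. It was 0.21 to 0.32 with 1 library left out, and with the block 0.22 to 0.34, with 0.25 without the first or the third untreated library. In HPg cells the median was 0.38, against 0.30 with upper-quartile factors, 0.33 with library totals only and 0.23 with the GC correction. It was 0.22 with block, GC correction and no first library with PMA. With 1 library left out it was 0.26 (without the first with PMA) to 0.45 (without the second with PMA). With the block as well it was 0.28 (without the first with PMA) to 0.40. Between the lines with PMA, -0.15 became 0.015 with the GC correction and 0.010 with the block as well. The interaction's -0.05 became 0.10 with the GC correction, with or without the block, 0.080 with both and without the first HPg library with PMA, and -0.17 to 0.0097 with 1 library left out. The cause of these changes was not tested.

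Over all genes, the number called between the untreated lines was 219, against 2083 with the block, 775 by DESeq2 and 12 with only the 2 groups. With PMA in KO-labelled cells it was 739, against 2221 with the block, 1279 by DESeq2 and 519 with only the 2 groups. In HPg cells with PMA it was 574, against 2462, 1212 and 222 in the same order, and between the lines with PMA 411, against 3090, 1184 and 354. Leaving out 1 library gave 295 to 604 with PMA in KO-labelled cells (969 to 2041 with the block). In HPg cells it gave 244 to 332 (1064 to 2660 with the block). Between the lines with PMA it gave 60 to 573 (1361 to 3768 with the block). At these depths the lowest count of any of the 33 genes was 3649, so the spread between libraries and not counting error set the precision.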
